A study of Mus musculus with 6 samples.

Results

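The 10 genes described here make, store, take up and break down serotonin and histamine: Tph1, Hdc, Ddc, Gch1, Spr, Qdpr, Slc18a2, Slc6a4, Maoa and Maob. They were chosen by gene symbol from a deposited expression table of 24672 genes, and all 10 were found in it. The choice was made with earlier results of the same table known, the FPKM values of Tph1 in the 2 groups among them. Differences between the groups are therefore given for these genes as a description, with no p-value.

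RNA sequencing compared 3 libraries whose labels read female germ stem cells (FGSC) with 3 whose labels call the cells differentiated (Dif-FGSC), all from C57BL/6 mouse cells kept in culture for over 20 passages. FGSC were grown on mitotically inactivated STO cells, a mouse fibroblast line, in medium with serum, LIF, EGF, bFGF and GDNF. For Dif-FGSC the STO feeder was removed and the cells were placed on inactivated granulosa cells in medium with serum, retinoic acid at 0.1 µmol/L, and bFGF and BMP4 at 10 ng/mL each. Feeder, growth factors and retinoic acid thus changed together and cannot be told apart, and both kinds of feeder cell could leave RNA in the libraries. The age of the mice is not given in the sources used here, and nothing states whether replicate libraries stem from separate cultures. A p-value therefore sets a difference only against the spread among these libraries, and may not carry over to other cultures. The table's column names were read as FGSC for con and as Dif-FGSC for dif, and each direction below rests on that reading. The series title concerns meiosis started by retinoic acid.

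Germ cell markers did not bear out the cell type named in the labels. All 10 germ cell markers examined, among them Ddx4 and Dazl, stayed below 0.1 FPKM (fragments per kilobase of transcript and per M mapped fragments, with M for mega) in every library, so the groups are called by their labels only. The steps between low FPKM values implied between 17.3 and 26.8 M fragments per library. With a floor of 3 fragments, a transcript as long as that of Hdc would be detected from 0.0468 to 0.0725 FPKM, depending on the library.

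Serotonin is made from tryptophan in a pair of steps. Tph1 adds a hydroxyl group to tryptophan with the help of tetrahydrobiopterin and sets the rate outside the brain, and Ddc then removes the carboxyl group. Histamine is made from histidine by Hdc alone. Slc18a2 loads both amines into granules or vesicles, Slc6a4 takes serotonin back up at the cell surface, and Maoa and Maob oxidise serotonin. Gch1 starts and Spr finishes the synthesis of tetrahydrobiopterin, and Qdpr regenerates it after use. Rodent mast cells are known for storing both amines, platelets for storing serotonin they take up, and enterochromaffin cells of the gut for making serotonin.

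The bases before the start sites of the genes that carry the main results are shown first. Tph1 and Ddc each have a pair of start sites in RefSeq, so a value for the gene can draw on either. Slc18a2 and Hdc are shown because one was abundant and the other near the floor. Each line holds the 250 bases before a start on the gene's own strand, 5′ to 3′, from the RefSeq promoter table of build GRCm38.p6, which is not the mm9 build of the deposited values. Capitals mark matches, on either strand, to AGATAA (read by GATA factors), CATGTG (an E-box read by Mitf), CACGTG (another E-box), TGANTCA (read by AP-1), AGGTCA (read by nuclear receptors), GGGCGG (the GC box), CCAAT (a box of that name) and TATAAA (the TATA box).
Tph1, chr7:46672538-46672787, minus strand: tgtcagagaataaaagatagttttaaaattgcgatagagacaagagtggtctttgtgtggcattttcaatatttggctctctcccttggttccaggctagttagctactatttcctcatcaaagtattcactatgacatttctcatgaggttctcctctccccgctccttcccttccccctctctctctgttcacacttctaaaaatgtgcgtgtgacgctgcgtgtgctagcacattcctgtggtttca
Tph1, chr7:46667378-46667627, minus strand: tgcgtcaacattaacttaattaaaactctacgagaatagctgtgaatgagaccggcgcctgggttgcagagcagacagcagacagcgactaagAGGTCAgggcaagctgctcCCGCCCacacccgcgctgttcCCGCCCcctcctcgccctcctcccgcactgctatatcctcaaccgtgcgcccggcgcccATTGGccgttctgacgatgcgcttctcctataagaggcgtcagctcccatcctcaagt
Ddc, chr11:11898145-11898394, minus strand: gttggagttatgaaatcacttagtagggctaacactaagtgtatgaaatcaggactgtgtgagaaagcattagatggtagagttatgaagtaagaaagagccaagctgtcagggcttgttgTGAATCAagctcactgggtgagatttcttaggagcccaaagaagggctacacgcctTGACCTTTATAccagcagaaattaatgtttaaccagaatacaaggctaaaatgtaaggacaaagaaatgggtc
Ddc, chr11:11890409-11890658, minus strand: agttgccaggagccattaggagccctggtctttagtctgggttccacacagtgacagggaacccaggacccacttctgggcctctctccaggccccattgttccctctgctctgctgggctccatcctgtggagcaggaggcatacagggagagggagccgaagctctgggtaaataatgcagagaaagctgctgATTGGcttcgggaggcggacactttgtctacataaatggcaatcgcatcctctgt
Slc18a2, chr19:59260628-59260877, plus strand: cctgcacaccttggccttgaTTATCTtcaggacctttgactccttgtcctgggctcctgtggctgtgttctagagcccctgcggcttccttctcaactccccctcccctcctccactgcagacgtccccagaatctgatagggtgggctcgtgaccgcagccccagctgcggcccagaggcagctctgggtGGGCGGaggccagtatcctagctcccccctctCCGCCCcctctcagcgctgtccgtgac
Hdc, chr2:126618679-126618928, minus strand: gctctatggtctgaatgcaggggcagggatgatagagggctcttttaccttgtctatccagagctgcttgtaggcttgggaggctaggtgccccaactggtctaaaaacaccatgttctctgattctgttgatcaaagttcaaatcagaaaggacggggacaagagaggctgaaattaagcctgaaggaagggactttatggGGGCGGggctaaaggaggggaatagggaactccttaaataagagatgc
None of the printed bases lay in an annotated exon of the supplied GENCODE annotation of that build.

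The pair of Tph1 windows differed in base composition, with 43.6% G or C in the first and 58.8% in the second, where the median over 32851 promoter windows of that length was 52.4%. The first held none of the motifs. The second held 2 copies of GGGCGG, the GC box found in 32.7% of all windows, the nuclear receptor motif AGGTCA (14.0% of windows) 157 bases before the start, and a CCAAT box (33.8%). In Ddc the first window held the AP-1 motif TGANTCA (6.75%), and a copy of AGGTCA whose last printed base is the first of a TATAAA match (12.4%), both read on the opposite strand, while the second held 1 CCAAT box. The Slc18a2 window held a GATA factor motif, AGATAA (9.99%), 230 bases before the start and 2 GC boxes, and that of Hdc 1 GC box. The E-box letters CATGTG, found in 12.3% of windows, and CACGTG, found in 6.02%, were in none of the printed lines. These matches describe letters in the windows, and binding was not measured.

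The values of Tph1 and Ddc do not look like single estimates. Values of 5244 of 14637 genes above 0 carry more than 6 significant digits, which was the case for 0.5% of genes with 1 RefSeq transcript, 70.8% of those with 2 and 86.6% of those with 3. Multiplying by a small whole number, tried from 2 upwards, brought the digits back to 6 or 1 more. In 2188 of 2202 such genes with 2 RefSeq transcripts that number was 2. With 3 transcripts it was 3 in 1021 of 1307 genes, and over all 5146 genes that could be compared it equalled the number of transcripts in 70.8%. Since 2 was tried first and 1 extra digit was allowed, part of the agreement at 2 is built into this step and is no separate check. Tph1 has 3 RefSeq transcripts and its values behave as the mean of 3 entries, and those of Ddc as the mean of 2. If the entries are summed, Tph1 stood at 119, 194 and 227 FPKM in the FGSC libraries and at 26.1, 27.1 and 46.7 in the Dif-FGSC ones. The other 8 members behave as single entries. The labels do not describe this step, and a mean over transcripts does not show which of the start sites above was in use.

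Tph1 had the largest difference among the members above the filter. The FGSC libraries listed it at 39.6, 64.8 and 75.8 FPKM and the Dif-FGSC libraries at 8.71, 9.03 and 15.6. Every FGSC library was above every Dif-FGSC library. The means were 60.0 ± 18.6 and 11.1 ± 3.87 FPKM (SD, n = 3 each), a ratio of 5.41 between FGSC and Dif-FGSC. On the log2(FPKM + 1) scale, on which changes of low genes come out too small, the fitted difference of Dif-FGSC minus FGSC was -2.33 ± 0.27 (SE). Among the 9162 genes that passed a filter of a mean of at least 1 FPKM over the 6 libraries, it ranked 12 from the lowest difference. For each SE given here and below, the fit draws the gene's variance towards that of genes of like level. The SE of Tph1 is therefore smaller than its own libraries alone would give.

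**Figure D1:**
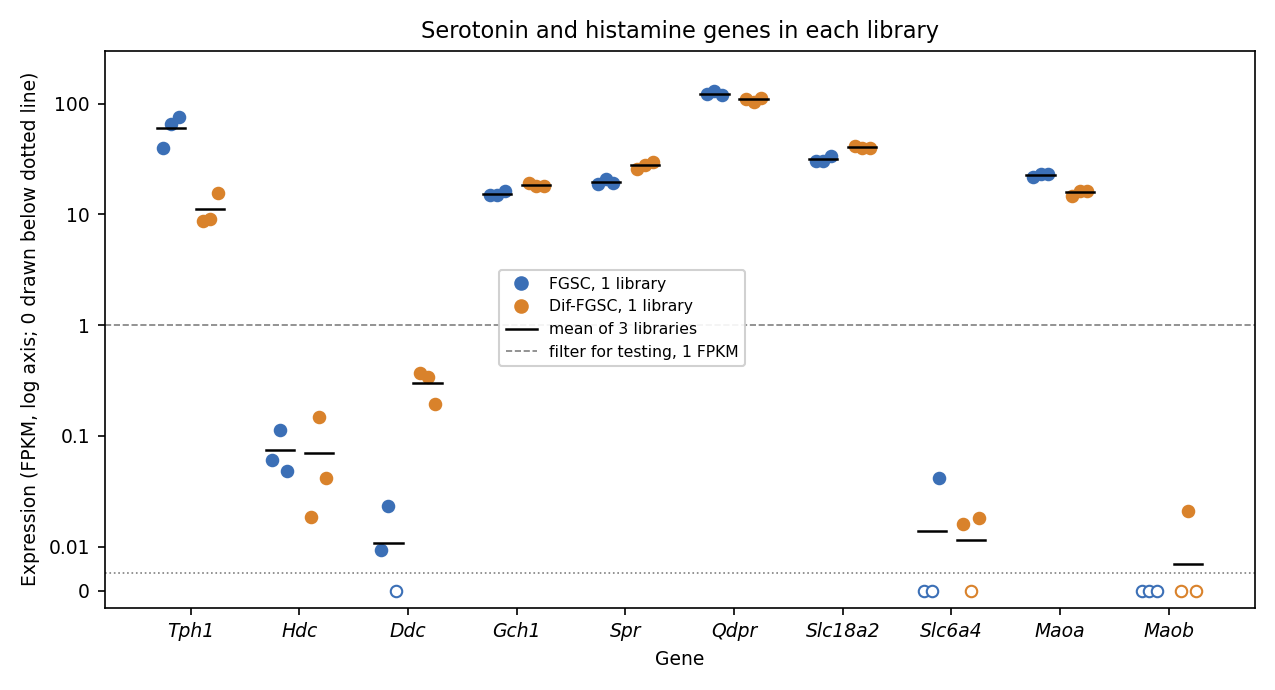
FPKM of each of the 10 genes in every library, on a log axis with values of 0 drawn as open circles below the dotted line. Blue points are the 3 FGSC libraries, orange points the 3 Dif-FGSC libraries and black lines their means. The groups lie clearly apart for Tph1 and, below the filter, for Ddc, and 6 genes lie above the 1 FPKM filter (dashed line) and 4 below it.

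Tph1 also varied more between libraries of one group than the other members above the filter did. Its coefficient of variation was 30.9% in FGSC and 34.8% in Dif-FGSC, against 2.35% to 7.27% for those other 5 members. Members near the floor varied by more than Tph1 in at least 1 group, as Hdc did with 47.2% and 99.5%. Its SD within groups on the log2 scale was 0.456, where the median of all genes tested was 0.0573, and 99.7% of the 1438 genes of like level (within 0.5 log2 units) had a smaller one. Between FGSC libraries the order of Tph1 was the reverse of the order of implied depth, which was 26.8, 21.9 and 17.3 M fragments. In Dif-FGSC the libraries at 9.03 and 15.6 FPKM had the same implied depth of 19.7 M. Whether depth or the averaging of entries had a part in the spread of Tph1 was not tested.

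**Figure D2:**
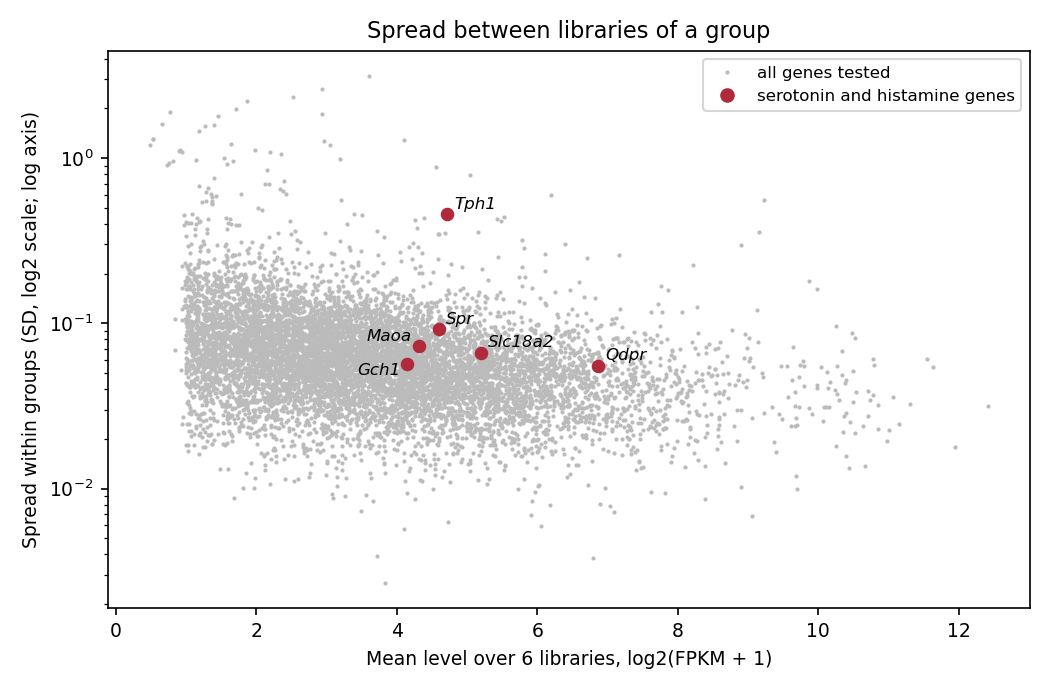
Each point is 1 of the 9162 genes tested, with its mean log2(FPKM + 1) over the 6 libraries on the x axis and its SD within groups, on the log2 scale, on a logarithmic y axis. Red points are the 6 serotonin and histamine genes above the filter, of which Tph1 stands at 0.456 and the others at 0.0553 to 0.0918.

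Ddc, the decarboxylase that completes serotonin, stayed low in every library. It was listed at 0.00935, 0.0233 and 0 FPKM in the FGSC libraries and at 0.373, 0.339 and 0.193 in the Dif-FGSC ones. All 3 Dif-FGSC libraries were above all 3 FGSC libraries. With the entries summed, the values correspond to about 1.0, 2.1 and 0.0 fragments against 33.7, 26.9 and 15.4, so FGSC lay below the floor of 3 fragments in each library and Dif-FGSC above it. Ddc did not pass the filter, and no fold is given because 1 FGSC library was listed at 0. Its difference therefore opposed that of Tph1, at a level below 1 FPKM.

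Hdc, the enzyme that makes histamine, was near the floor in both groups. It was listed at 0.0610, 0.114 and 0.0479 FPKM in the FGSC libraries and at 0.0184, 0.149 and 0.0420 in the Dif-FGSC ones, about 3.9, 6.0 and 2.0 fragments against 1.0, 7.0 and 2.0. The FGSC range lay within that of Dif-FGSC, and a difference was not detectable at this depth. The enzyme of histamine synthesis was thus listed at a mean of 0.0744 ± 0.0351 FPKM (SD, n = 3) in FGSC, beside Tph1 at 60.0 ± 18.6 in the same libraries.

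The members that supply tetrahydrobiopterin, Gch1, Spr and Qdpr, were all expressed and went in different directions. Of the other cofactor genes examined, Pcbd1 was listed at 0 in every library, which can be a failed estimate. Gchfr did not exceed 0.141 FPKM. Gch1, the first enzyme, was listed at 14.8, 14.8 and 16.2 FPKM in the FGSC libraries and at 19.1, 18.2 and 18.1 in the Dif-FGSC ones. Every Dif-FGSC library was above every FGSC library, and the log2 difference was 0.26 ± 0.045 (SE). Spr, the last enzyme, was listed at 18.7, 20.9 and 19.1 FPKM against 25.5, 28.1 and 29.4, with no overlap and a log2 difference of 0.48 ± 0.061 (SE). Qdpr, which recycles the cofactor, was listed at 121, 129 and 120 FPKM against 111, 104 and 112, the highest level of a member as deposited. With its entries summed, Tph1 would stand above it in FGSC replicates 2 and 3. Here every Dif-FGSC library was below every FGSC library, at a ratio of the means of 0.883 and a log2 difference of -0.18 ± 0.040 (SE). The synthesis enzymes Gch1 and Spr thus stood higher in the Dif-FGSC libraries, by 1.21 and 1.42 times, while the enzyme that uses the cofactor for serotonin, Tph1, stood lower. Pts, another enzyme of that synthesis described below, stood 1.09 times higher and did not pass the threshold used there.

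Slc18a2, which loads serotonin and histamine into granules, was listed at 30.2, 30.5 and 33.9 FPKM in the FGSC libraries and at 41.7, 39.9 and 40.1 in the Dif-FGSC ones. The groups did not overlap, the means were 31.5 ± 2.02 and 40.6 ± 0.953 FPKM (SD, n = 3 each), and the log2 difference was 0.35 ± 0.047 (SE). Slc6a4, the serotonin carrier of the cell surface, was listed at 0, 0 and 0.0418 FPKM against 0.0161, 0 and 0.0183, which is 2.0 fragments or fewer in each library. A transcript at the floor of 3 fragments would read 0.0411 to 0.0636 FPKM for this gene, so no difference was detectable. Storage and reuptake genes thus differed in level by far more than the groups did.

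Maoa, which oxidises serotonin, was listed at 21.6, 23.1 and 23.1 FPKM in the FGSC libraries and at 14.7, 16.4 and 16.4 in the Dif-FGSC ones. All Dif-FGSC libraries were below all FGSC libraries, with means of 22.6 ± 0.871 and 15.8 ± 1.00 FPKM (SD, n = 3 each) and a log2 difference of -0.49 ± 0.052 (SE). Maob, the related enzyme, was listed at 0 in 5 libraries and at 0.0211 FPKM, 1.0 fragment, in Dif-FGSC replicate 2. Of the pair, Maoa alone was above the floor.

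Of the 10 members, 6 passed the filter, and a fit across all genes (limma, Benjamini-Hochberg adjusted p under 0.05) called 3 of them higher and 3 lower in the Dif-FGSC libraries. The higher ones were Slc18a2, Gch1 and Spr and the lower ones Tph1, Maoa and Qdpr. Over all 9162 genes tested, 36.5% were called higher and 28.6% lower. The groups did not overlap in any of the 6, where 70.7% of all genes tested had groups that did not overlap. Nothing is read from these counts, since the members were picked with results of this contrast known. The members nearest the filter were Gch1 above it, at a mean of 15.3 FPKM in FGSC, and Ddc below it, at 0.302 FPKM in Dif-FGSC.

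On the FPKM scale, which is per transcript length, the order of levels differed between the groups in the places of Tph1 and Maoa. Maoa stood above Spr and Gch1 in FGSC and below both in Dif-FGSC. In libraries labelled FGSC the order from the highest mean was Qdpr, Tph1, Slc18a2, Maoa, Spr and Gch1, and no neighbours in it overlapped. In those labelled Dif-FGSC it was Qdpr, Slc18a2, Spr, Gch1, Maoa and Tph1, and the ranges of Maoa (14.7 to 16.4 FPKM) and Tph1 (8.71 to 15.6 FPKM) overlapped. Both orders depend on the averaging of Tph1. With its 3 entries summed, Tph1 would lead in FGSC, at 119 to 227 FPKM and overlapping Qdpr (120 to 129 FPKM), and in Dif-FGSC it would lie at 26.1 to 46.7 FPKM, a range that overlaps those of Spr and Slc18a2. Among the low members, Slc6a4, Ddc and Maob in FGSC and Slc6a4 and Maob in Dif-FGSC lay within a few fragments of each other. They have no order beyond counting error. Hdc in FGSC, at 3.9, 6.0 and 2.0 fragments, lay above Maob, at 0.0 in each of those libraries. It equalled Slc6a4 in FGSC replicate 3, at 2.0 fragments.

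Other genes of these pathways were taken from lists drawn up by function, 81 genes in all, of which 24 passed the filter. These lists, and the marker lists below, were drawn up with earlier results of these data known. The p-values given for their genes are therefore a description and no separate support. Limma called 10 of the 24 higher and 3 lower (adjusted p under 0.05), beside the 36.5% and 28.6% of all genes tested given above, and their median log2 difference was 0.12 against 0.03 for all genes tested. Of the tested genes that make or bind pyridoxal phosphate, the cofactor of both Ddc and Hdc, or break it down, Pdxk and Plpbp were called higher and Pdxp was not called. Pdxk, the kinase that makes it, was listed at 19.6, 18.2 and 17.0 FPKM in the FGSC libraries and at 30.5, 32.0 and 29.6 in the Dif-FGSC ones, and it rose 1.68 times (limma adjusted p = 2.24e-05). Plpbp, a pyridoxal phosphate binding protein, was called higher at a log2 difference of 0.12. That call was lost in 7 of 14 alternative analyses, namely with median-ratio scaling, quantile normalization or the replicate block and without FGSC replicate 1 or 2 or Dif-FGSC replicate 1 or 2. The calls missed Pts, an enzyme of tetrahydrobiopterin synthesis (27.9 ± 0.524 and 30.3 ± 1.93 FPKM; SD, n = 3 each), Pcbd2 (10.3 ± 0.838 and 9.65 ± 2.07) and Pdxp (3.61 ± 0.481 and 4.58 ± 0.793). Without Dif-FGSC replicate 1 Pts was called higher, and Pdxp was without Dif-FGSC replicate 2 and with the replicate block.

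**Figure D3:**
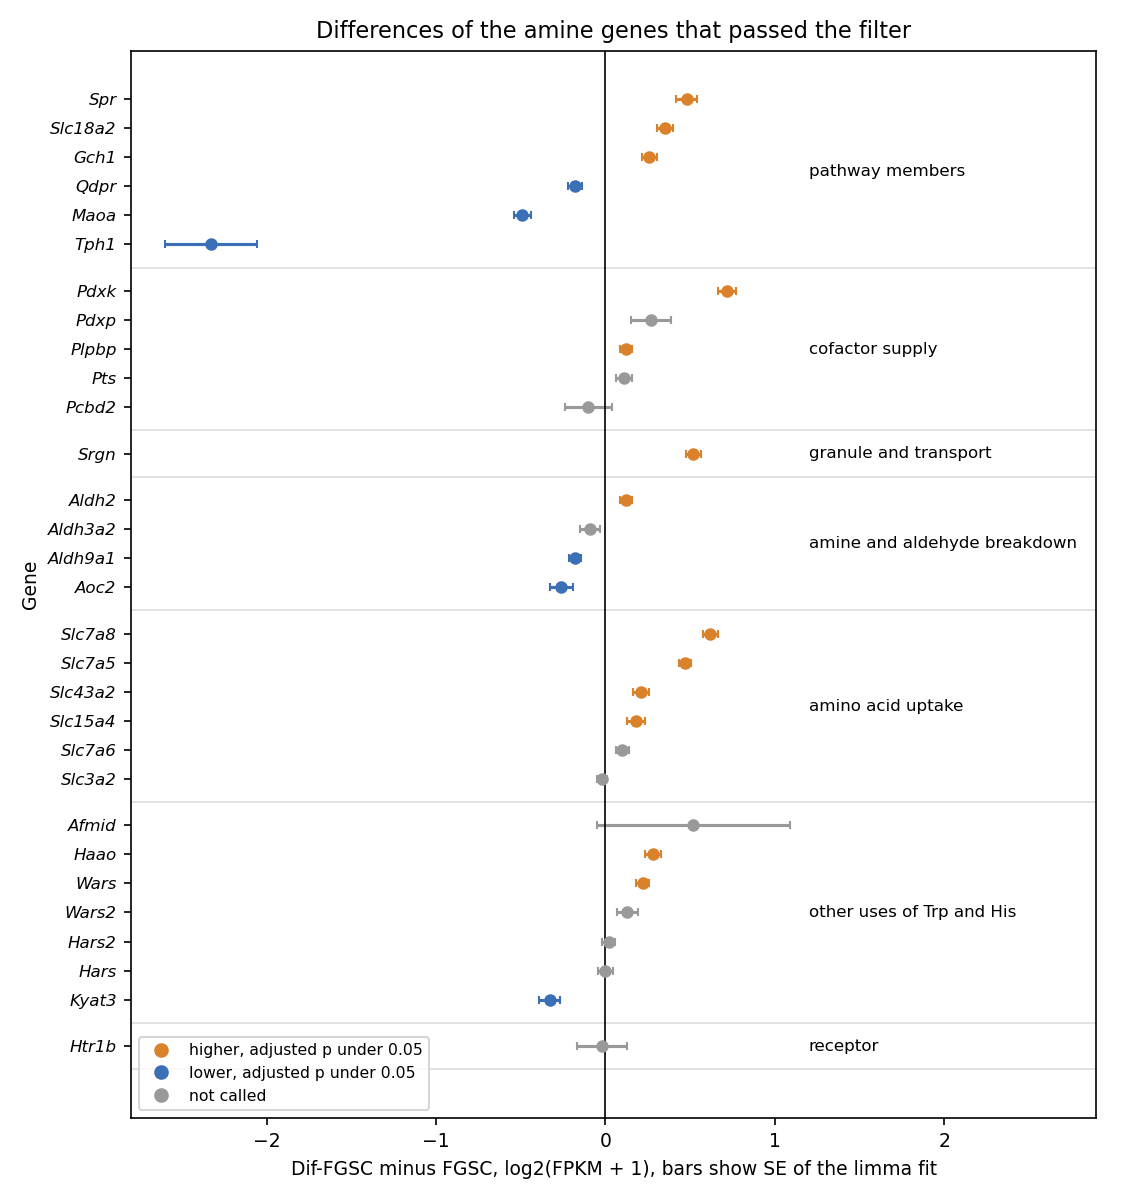
Log2 difference of Dif-FGSC minus FGSC for the 6 members and the 24 other amine pathway genes that passed the filter, with bars for the SE of the limma fit, grouped by role. Orange points were called higher, blue points lower and grey points were not called. Tph1, at -2.33, lies far to the left of every other gene shown.

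Several carriers of the amino acid precursors were also called higher. Slc7a5 and Slc7a8 carry large neutral amino acids, tryptophan and histidine among them, and both rose. Slc7a5 stood at 124 ± 1.43 and 173 ± 8.26 FPKM (limma adjusted p = 2.75e-05) and Slc7a8 at 43.4 ± 2.33 and 67.0 ± 1.29 (limma adjusted p = 1.38e-05). Slc3a2, the partner chain of both, stood at 82.4 ± 2.39 and 81.0 ± 1.51 FPKM and was not called. Slc43a2 was also called higher, at 1.92 ± 0.0359 against 2.38 ± 0.118 FPKM. Slc15a4, a lysosomal carrier of histidine, was called at 7.18 ± 0.233 against 8.26 ± 0.534, a call lost with quantile normalization and without FGSC replicate 1 or Dif-FGSC replicate 1. In all, 4 of 6 tested uptake genes were called higher and none lower, beside 36.5% and 28.6% of all genes tested, and nothing particular to the carriers is read from 6 genes. Slc43a1, below the filter, stood at 1.06 ± 0.111 and 0.916 ± 0.0530 FPKM and was not tested. Slc7a6 (5.86 ± 0.0626 and 6.35 ± 0.204 FPKM) missed the threshold, and was called with no intensity trend and when values were multiplied by the number of entries averaged.

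Other storage and breakdown genes followed both directions. Srgn, the proteoglycan core to which amines bind in granules, was higher at 74.1 ± 2.75 FPKM in Dif-FGSC against 51.4 ± 2.84 in FGSC (limma adjusted p = 5.41e-05). Of the 10 other transport and granule genes it was the one that passed the filter. Of 4 tested breakdown genes, Aoc2 and Aldh9a1 were called lower, Aldh2, an aldehyde dehydrogenase that acts after Maoa, was called higher, and Aldh3a2 was not called. These calls stand beside 36.5% higher and 28.6% lower of all genes tested, and nothing is read from 4 genes. The log2 difference of Aoc2, an amine oxidase, was -0.26 ± 0.068 (SE). Aldh9a1, another aldehyde dehydrogenase, stood at 55.5 ± 1.23 and 48.9 ± 1.64 FPKM. Aldh3a2 stood at 2.36 ± 0.119 and 2.16 ± 0.184 FPKM and was called lower after quantile normalization. For Aldh2, at 25.5 ± 0.868 and 27.7 ± 0.423 FPKM, the call was lost with median-ratio scaling and quantile normalization, and without FGSC replicate 1 or Dif-FGSC replicate 1 or 2. Hnmt, which methylates histamine, was listed at 0 in every library, and Aoc1, which oxidises it, did not exceed 0.00635 FPKM.

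Of 7 tested genes on other routes that use tryptophan and histidine, 2 were called higher and 1 lower, shares no larger than the 36.5% and 28.6% of all genes tested. Haao, of the kynurenine route, was called higher at 3.92 ± 0.157 against 4.95 ± 0.237 FPKM, and Wars, which charges the tryptophan tRNA, at 7.02 ± 0.195 against 8.37 ± 0.178. Kyat3, a kynurenine aminotransferase, was called lower at 7.61 ± 0.218 against 5.88 ± 0.541 FPKM. Wars2, Hars and Hars2, other enzymes that charge tRNA, and Afmid were not called. Afmid was listed at 0, 0 and 2.21 FPKM in FGSC and at 2.32, 0 and 1.84 in Dif-FGSC, and such zeros can be failed estimates. Ido2, Tdo2 and Kmo were listed at 0 in every library.

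Receptors of both amines were at or near 0, apart from Htr1b. Of 14 serotonin receptors 12 stayed below 0.1 FPKM in every library and 10 were listed at 0 throughout. Htr1b, an inhibitory receptor, was the one above the filter, at 1.99, 1.34 and 1.14 FPKM in the FGSC libraries and 1.64, 1.05 and 1.65 in the Dif-FGSC ones. Its ranges overlapped and it was not called (limma adjusted p = 0.917). None of the 4 histamine receptors passed the filter, and the highest value was 0.178 FPKM, of Hrh2. The other amine synthesis enzymes examined, namely Tph2, Th, Dbh, Pnmt and Aanat, were listed at 0 in every library. An exact 0 in such a table can be a failed estimate, and 10035 genes were listed at 0 in all 6 libraries.

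Markers of cell types known to hold these amines were set beside the members. In the mast cell list the summed level was 355 to 394 FPKM in the FGSC libraries and 430 to 450 in the Dif-FGSC ones. Most of it came from Cpa3, a granule carboxypeptidase, at 288 ± 19.0 and 301 ± 10.5 FPKM, and Kit, the receptor for stem cell factor, at 89.0 ± 5.20 and 114 ± 0.931. Of the 14 mast cell markers 4 were tested, of which 3 rose and Cpa3 was not called, except after quantile normalization. Over all genes tested 36.5% were called higher and 28.6% lower, and nothing is read from a count of 4 markers. The third in level, Gzmb, a granule protease also found in lymphocytes, rose from 2.53 ± 0.267 to 15.9 ± 0.576 FPKM (limma adjusted p = 2.16e-07). Mcpt2 also rose, with 4.57 ± 1.02 FPKM in Dif-FGSC against 0.371 ± 0.310 in FGSC (limma adjusted p = 5.45e-05). Cma1, below the filter, stood at 0.0288 ± 0.0267 and 1.24 ± 0.391; both are granule proteases. Other markers of the list, 7 of the 14, stayed below 0.1 FPKM in every library. Among the low markers, Tpsb2, Tpsg1 and Mrgprb2 were listed at 0 in every library, Fcer1a, the alpha chain of the high-affinity IgE receptor, did not exceed 0.0431 FPKM and Ms4a2, its beta chain, 0.174. Among 6 basophil markers the summed level was 3.31 to 3.78 FPKM in FGSC and 10.6 to 12.5 in Dif-FGSC, with Mcpt8 at 0.596 ± 0.147 and 8.21 ± 0.925, and Prss34 listed at 0 in every library. Il3ra stood at 2.14 ± 0.340 and 2.50 ± 0.159 FPKM and was called higher without FGSC replicate 3 but not with all libraries, and Cd200r3 at 0.777 ± 0.0261 and 1.10 ± 0.0490.

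The 10 markers of megakaryocytes and platelets summed to 70.5 to 79.1 FPKM in the FGSC libraries and 70.0 to 72.3 in the Dif-FGSC ones. Itga2b, an integrin chain of that lineage and of mast cells, fell from 53.0 ± 2.09 to 47.1 ± 1.06 FPKM, and Itgb3, its partner, rose from 16.2 ± 1.78 to 20.7 ± 0.162. Pf4, a platelet chemokine, was called lower at 2.95 ± 1.18 against 1.36 ± 0.658 FPKM with overlapping groups, and that call was lost with no filter and without FGSC replicate 1 or 3 or Dif-FGSC replicate 2 or 3. Gp1bb and Gp6 were listed at 0 in every library. Neuroendocrine markers summed to at most 0.974 FPKM in any library, amine neuron markers to 1.18, germ cell markers to 0.150, granulosa markers to 0.834 and fibroblast markers to 0.639. The 3 highest genes of these lists were Fev, Syp and Chgb (neuroendocrine), Fev, Gata3 and Slc6a2 (amine neuron), Prdm1, Pou5f1 and Zp3 (germ cell), Amh, Hsd17b1 and Nr5a1 (granulosa) and Thy1, Pdgfrb and Pdgfra (fibroblast). The leading ones were Fev, at 0.119 ± 0.117 and 0.586 ± 0.254 FPKM, for both neural lists, Amh for granulosa cells (0.492 ± 0.109 and 0.374 ± 0.0920) and Thy1 for fibroblasts (0.363 ± 0.0900 and 0.113 ± 0.0352). Whether a shift in the kinds of cell present had a part in the differences of the members was not tested. In bulk libraries fewer cells of a type and less RNA per cell cannot be told apart.

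**Figure D4:**
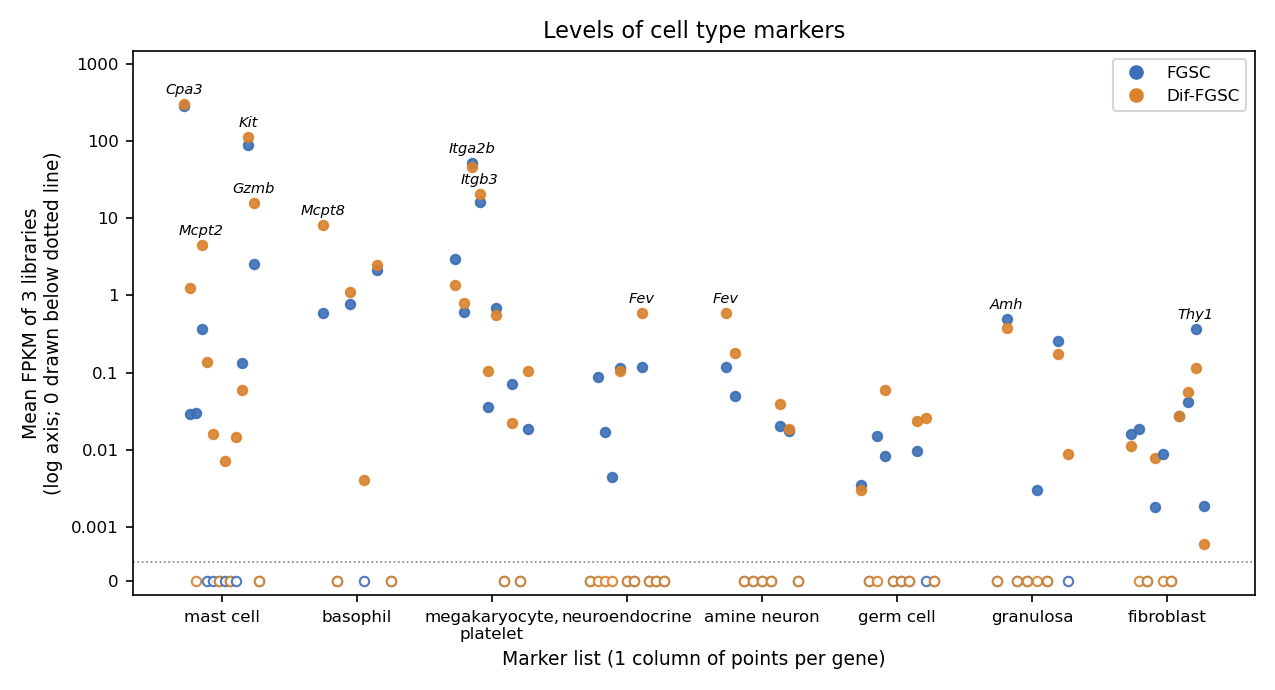
Mean FPKM of 3 libraries for each marker gene, by cell type list, on a log axis with means of 0 drawn as open circles below the dotted line. Blue points are FGSC and orange points Dif-FGSC. Cpa3 at 288 and 301 FPKM and Kit at 89.0 and 114 FPKM stand highest, and germ cell, granulosa, fibroblast and neural markers lie below 1 FPKM.

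Genes with the pattern most like that of Tph1 were sought by Pearson correlation of log2(FPKM + 1) over the 6 libraries, among 6395 genes with a mean of at least 5 FPKM and no value of 0. The 5 closest were Ascc3 (r = 0.9990), Chmp2b (0.9970), Sf3a3 (0.9953), Fam241a (0.9934) and Mrpl53 (0.9933). The size of their differences was smaller than that of Tph1: Fam241a stood 1.44 times and Ascc3 1.07 times higher in FGSC than in Dif-FGSC. After the mean of each group was subtracted, the closest were 2700081O15Rik (r = 0.9993), Ndufb10 (0.9951), Hnrnph1 (0.9949), Ddi2 (0.9935) and Camkk2 (0.9930). Ndufb10, a subunit of respiratory complex I, was listed at 82.0, 88.1 and 89.1 FPKM in FGSC and at 103, 104 and 111 in Dif-FGSC, so it shared the order of libraries with Tph1 and not the difference between groups. For Hdc, whose profile rests on 1.0 to 7.0 fragments per library, the closest were Snf8 (r = 0.9530), Yipf4 (0.9492), Med27 (0.9267), Prdx2 (0.9139) and Arfip1 (0.9049) over the libraries. With group means subtracted they were Rab1b, Ahsa1, Emc10, Kif2c and Strap (r = 0.9748 to 0.9866). With 6 libraries and 6395 genes compared, correlations of this size are a description of these libraries and carry no test.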

How the data were processed

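The values are FPKM per gene symbol, as deposited by the authors, for 3 FGSC and 3 Dif-FGSC libraries, made from poly(A) RNA with a stranded kit per the labels' protocols. HISAT2 4.8.2, Cufflinks 2.2.1 and build mm9 stand in the submitters' processing notes, without the step each was used for. The gene annotation and strand setting: not given in the sources used here. Values of overlapping and near-identical genes are therefore uncertain. The table held 24674 entries, and the higher of each of 2 duplicated symbols was kept. Of the symbols 24564 matched the reference names, and 1 value in no named column was left out.

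Limma 3.58.1 in R 4.3.3 (intensity trend, no covariate) was fitted to log2(FPKM + 1), a pseudocount of 1. It was fitted for the 9162 genes with a mean of at least 1 FPKM. The code was tried on simulated data in which every gene had the same spread and only more abundant genes were changed. That trial does not check genes that vary as Tph1 did, or low genes. Calls were made where the p adjusted by Benjamini-Hochberg over all genes tested was under 0.05. The smallest p of an exact two-sided permutation test for 3 against 3 is 0.1. FPKM carry no counts, so implied fragments rest on the steps between low values among 5681 genes, and cover counting error only. Between 337 and 387 low values per library were used, of which 72.0% to 75.7% lay within 0.1 of a whole number. The depth of each library was chosen to make that share large, so the share is no separate check. The members and all gene lists were chosen with earlier results of these data known. A few genes of the lists are not reported here and were left out of the lists' counts. Genes named were all members, tested pathway genes and those above 1 FPKM in a library, the 3 highest markers of each list and the 5 genes most like Tph1 and Hdc; others named were chosen after their values were seen. Promoters are from RefSeq (GRCm38.p6), which held 9 of the 10 members. Alternatives changed the pseudocount, filter, scaling, intensity trend, replicate block and the libraries used, and, chosen after seeing the data, multiplied values by the number of entries averaged. Python 3.11.15 with pandas 2.3.3 and numpy 2.4.6 was used.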

Additional observations from a re-analysis of the deposited data

How the results depend on the processing

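All 6 tested members kept their direction and call under each of the 14 alternatives: the log2 difference ranged from -2.60 to -2.14 for Tph1, 0.31 to 0.41 for Slc18a2, -0.56 to -0.44 for Maoa, 0.18 to 0.30 for Gch1, -0.21 to -0.11 for Qdpr and 0.41 to 0.54 for Spr. These members were chosen with results of this contrast known, and the alternatives use the same libraries, so stable calls are no separate support. With no filter all 10 members were tested and 4 were called higher, the added one being Ddc. Leaving out 1 library at a time gave 2984 to 3401 higher and 2317 to 2565 lower calls over all genes, and 7 to 10 higher and 3 lower among other pathway genes. Of 13 pathway calls 10 held under every alternative that tested them. Higher calls were 56.0% of all calls, 50.3% with median-ratio scaling and 46.7% with quantile normalization. The replicate block gave 3241 higher and 2557 lower calls, 3 and 3 among members and 10 and 3 among pathway genes, ending the call of Plpbp and adding that of Pdxp. Deviations of same-numbered libraries correlated at 0.131, 0.012 and 0.173, and FGSC replicate 2 correlated best with Dif-FGSC replicate 1 (0.106). Since 1 pair stayed under 0.1 and the labels tie no numbers together, the numbers were not used to pair libraries; whether some replicates share a source is not known. With the block the SE of Tph1 was 0.12 against 0.27. The difference of Ddc, not tested in the main fit, was 0.36. It was 1.83 with a pseudocount of 0.1 and 0.64 with values multiplied by the entries averaged, which its low level makes scale-dependent. Depth limits Hdc, Slc6a4 and Maob, at 7.0 fragments or fewer in each library.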

Other observations

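Besides Ddc, other listed genes below the filter had groups that did not overlap, in both directions. They were chosen after their values were seen and were not tested in the main fit. The share of all genes below the filter whose groups did not overlap was not worked out, so nothing is read from them. Slc29a4, a low-affinity carrier of monoamines, was listed at 0, 0.0164 and 0.0206 FPKM in the FGSC libraries and at 0.206, 0.0913 and 0.199 in the Dif-FGSC ones, about 1.0 fragment or fewer against 12.9, 5.0 and 10.9. Fev, a transcription factor of serotonin neurons that is also found in other cells, was listed at 0, 0.123 and 0.233 FPKM against 0.867, 0.517 and 0.375. Cma1, a mast cell chymase, was listed at 0.0336, 0 and 0.0527 FPKM against 1.62, 0.841 and 1.25. Vwf, Gata3, Prdm1 and Cd200r3 were also higher in every Dif-FGSC library. The opposite held for Chgb, a granin of secretory granules, at 0.0924, 0.0769 and 0.0968 FPKM against 0 in each Dif-FGSC library. It also held for Scg2, Ms4a2, Gp5 and Thy1, among which Ms4a2 had means of 0.133 and 0.0596 FPKM. Scg2 did not exceed 0.0243 FPKM in any library, Prdm1 0.0774 and Gp5 0.105, and fragments were not worked out for these genes.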
